A study of Mus musculus with 20 samples.

Results

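The clustered protocadherins are cell-surface adhesion proteins encoded side by side on mouse chromosome 18. They were taken here as the protein-coding genes of the GENCODE annotation whose symbols begin with Pcdha, Pcdhb or Pcdhg, which gave 57 of 21938 protein-coding genes: 14 Pcdha, 22 Pcdhb and 21 Pcdhg. All lie on the plus strand between chr18:36930184-37841873 in build GRCm38, a stretch of 912 kb that held 76 of the 102373 listed peaks of open chromatin, and the 100 kb flanks added 14 more. Pcdha11 names a pair of annotated genes, which are told apart below by their identifiers.

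Open chromatin had been mapped in ZHBTc4 mouse embryonic stem (ES) cells by ATAC-seq, which relies on a transposase that cuts and tags accessible DNA. In this line the pluripotency factor OCT4 is expressed from a Tet-Off promoter, which doxycycline (dox) shuts off. All cells also carried a lentiviral rescue OCT4 from the weak PGK promoter and the cell cycle reporter YPet-MD. The rescue was SNAP-MD-OCT4 or SNAP-MD*-OCT4. The cyclin B1 mitotic degron of the former strongly lowers the protein, without full loss, at the passage from mitosis to G1. In the latter the degron is mutated. The 16 libraries with 40 h of dox came from sorted cells of the fractions EG1 (early G1), LG1 (late G1), S and SG2 (the end of S phase together with G2), with 2 replicates for each construct and fraction, and 4 unsorted libraries without dox did not enter the list.

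The peaks of the 16 dox-treated libraries had been merged into a single list of positions. That list has no score, read count or value for any library, so the depth of sequencing and the error between replicates are unknown, and the constructs and phases cannot be compared. A listed peak says that the region was called in at least 1 library, and an absent peak says only that none is listed. Of 8 ES cell marker genes, 6 had a peak within 1000 bp of the transcription start site (TSS), among them Pou5f1 (which encodes OCT4) and Sox2. Nanog and Esrrb had none so near, with the nearest peak at 1481 and 4663 bp. Of 8 neuron markers 7 had such a peak, as did 66.1% of all protein-coding genes. A peak at a TSS in this list thus does not tell cell types apart.

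In neurons each cell uses a few of these genes, and the combination gives its surface an identity by which its branches recognise each other. Every Pcdha and Pcdhg gene has a variable exon with a promoter of its own, which is spliced to constant exons shared by the whole sub-cluster, whereas Pcdhb genes end without such exons. Most promoters hold a conserved sequence element with a CGCT core, and CTCF and cohesin, which fold chromatin into loops, join promoters to distant enhancers. The alternate genes are chosen at random, whereas the C-type genes Pcdhac1, Pcdhac2, Pcdhgc3, Pcdhgc4 and Pcdhgc5 are more widely used. Pcdhac2, Pcdhb1, Pcdhgc4 and Pcdhgc5 are known to lack the conserved element.

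To ask which of these promoters were open, each TSS was set against the list. A peak lay within 1000 bp of 37 of the 57 TSS (64.9%), and the same was true of 14498 of all 21938 protein-coding genes (66.1%). The share of the whole family was thus near that of all genes, but its sub-clusters differed. Pcdhg genes had a peak at 20 of 21 TSS (95.2%), Pcdha genes at 11 of 14 (78.6%) and Pcdhb genes at 6 of 22 (27.3%). Of the other 456 protein-coding genes of chromosome 18, 350 had one (76.8%), a share near that of Pcdha and above that of the whole family. The TSS itself lay inside a peak in 19 Pcdhg, 10 Pcdha and 4 Pcdhb genes, 33 of 57 in all (57.9%), against 58.8% of all protein-coding genes. The genes of a sub-cluster arose by duplication and are not replicates, so these shares are descriptions with no test. The distance limit of 1000 bp fell into an empty range. Pcdhb22, the farthest member inside it, had its peak 343 bp from the TSS, and Pcdhb21, the nearest outside, had it at 1678 bp. At a limit of 2000 bp Pcdhb genes numbered 14 of 22 (63.6%, against 69.1% of all genes) through peaks inside the coding sequence, described below, and with peaks of at least 300 bp only they numbered 2 of 22.

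**Figure D1:**
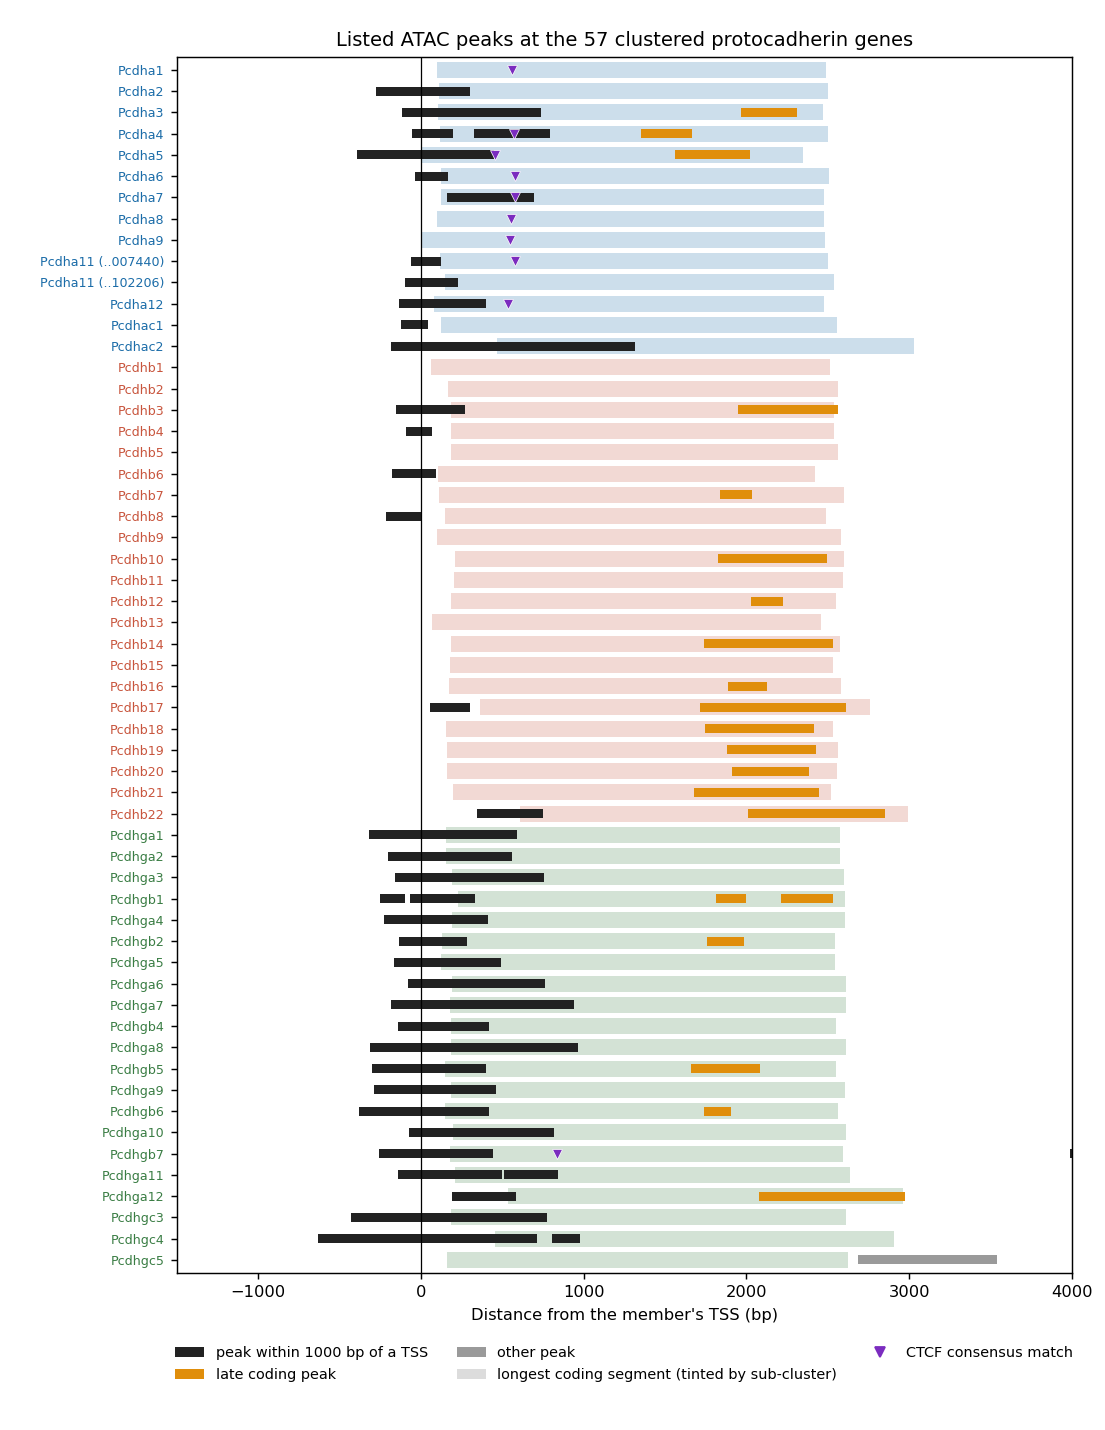
Each row is a clustered protocadherin gene in chromosomal order, and the horizontal axis is the distance from its TSS in bp. Bars show listed peaks over the tinted coding segment, and triangles show CTCF consensus matches. Peaks crowd at the TSS in 20 of 21 Pcdhg genes and in the late coding segment in 12 of 22 Pcdhb genes, and the black mark at the right edge of the Pcdhgb7 row is the peak of the next gene.

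The alternate Pcdhg genes had peaks without exception, at 12 of 12 Pcdhga and 6 of 6 Pcdhgb TSS. Relative to the TSS, the nearest peak of the Pcdhga genes began at -322 to 192 bp and ended at 413 to 967 bp, and that of the Pcdhgb genes began at -379 to -70 bp and ended at 283 to 442 bp. The start codon, 121 to 537 bp after the TSS, lay inside a peak in all 20 Pcdhg genes that had one.

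The peaks differed in width, which in a merged list depends on how many libraries called the region and how far each call reached. The widest peak within 1000 bp had a median of 800 bp in Pcdhga and 628 bp in Pcdhgb genes, and the range was 393 bp at Pcdhga12 to 1282 bp at Pcdhga8. Pcdhga8 and Pcdhga7 (1126 bp) were followed by Pcdhga3 (917 bp), Pcdhga1 (910 bp), Pcdhga10 (891 bp), Pcdhga6 (840 bp), Pcdhgb6 (795 bp), Pcdhga2 (760 bp) and Pcdhga9 (750 bp). Narrower peaks stood at Pcdhgb5 (706 bp), Pcdhgb7 (698 bp), Pcdhga5 (656 bp), Pcdhga4 (643 bp) and Pcdhga11 (638 bp). Across all protein-coding genes with a peak the median was 1090 bp and the quartiles were 863 and 1337 bp, and 13 of the 18 alternate Pcdhg genes lay below the lower quartile. The polymorphic pseudogene Pcdhgb8, which is no member, also had its start inside a peak of 566 bp.

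The C-type genes were unlike each other. Pcdhac2, with a role in the wiring of serotonin neurons, had the widest peak of any member, 1500 bp from position -182 to 1317 relative to its TSS. Pcdhgc4, needed for the survival of inhibitory neurons, had 1342 bp with a second peak of 172 bp behind it, and Pcdhgc3, an inhibitor of Wnt signalling, had 1206 bp. Pcdhac1, the first C-type gene of the Pcdha sub-cluster, had a peak of 166 bp that ended 40 bp after its TSS and did not reach the start codon. Pcdhgc5, the last gene of the whole cluster, had none within 1000 bp, and its nearest peak, of 856 bp, began 2686 bp after its TSS. Of the genes without the conserved element Pcdhac2 and Pcdhgc4 thus had wide peaks, and Pcdhgc5 and Pcdhb1 had none near the TSS.

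Among the alternate Pcdha genes 9 of 12 had a peak near the TSS, with a median width of 535 bp and a range of 184 to 857 bp, all 9 below the lower quartile of all protein-coding genes. Pcdha3 had 857 bp, Pcdha5 841 bp and Pcdha2 578 bp, and Pcdha12, the last of the alternate genes, had 537 bp. Narrow peaks stood at Pcdha6 (203 bp) and at both genes named Pcdha11, with 184 bp at ENSMUSG00000007440 and 323 bp at ENSMUSG00000102206. Pcdha1, the first gene of the cluster, had no peak within 8743 bp. Its neighbour Pcdha2 was the nearest with a peak. Pcdha8 and Pcdha9 also had none, at 12773 and 7264 bp from the nearest listed peak.

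Pcdhb promoters were the least often listed, and the peaks that were listed were narrow. The 6 genes were Pcdhb3 (426 bp), Pcdhb22 (409 bp), Pcdhb6 (269 bp), Pcdhb17 (249 bp), Pcdhb8 (214 bp) and Pcdhb4 (162 bp), with a median of 259 bp, and none reached the lower quartile of all protein-coding genes. At Pcdhb8 the peak ended 1 bp after the TSS. At Pcdhb17 and Pcdhb22 it began after the TSS, at 55 and 343 bp, ahead of start codons that lie 364 and 610 bp after it. Pcdhb1, the first gene of its sub-cluster, was the member farthest from any peak, at 35708 bp, followed by Pcdhb5 at 12858 bp, Pcdha8 at 12773 bp, Pcdhb9 at 12632 bp and Pcdha1 at 8743 bp.

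**Figure D2:**
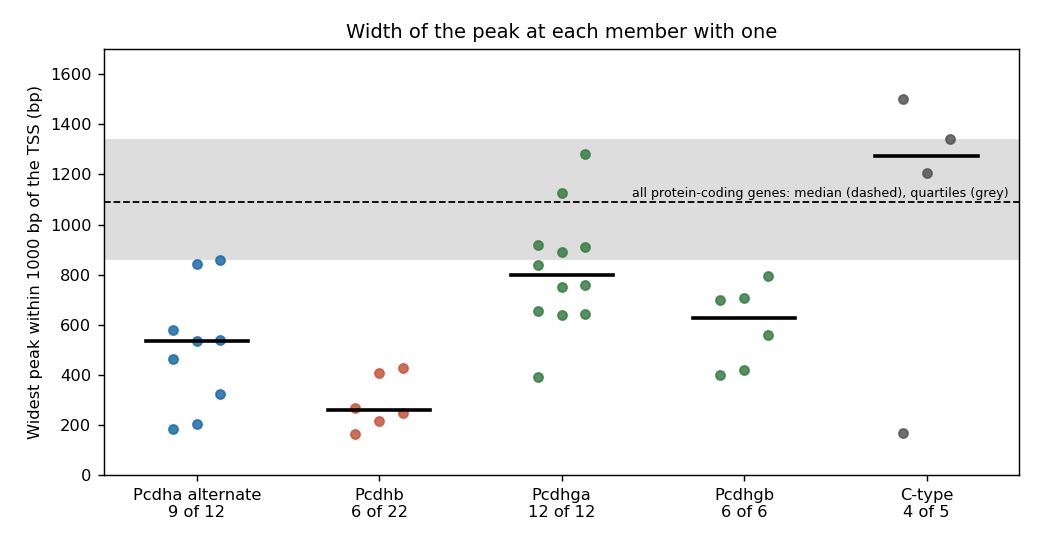
Each point is a gene with a peak within 1000 bp of its TSS, the vertical axis is the width of its widest such peak in bp, black bars are medians, and the numbers under the groups are genes with a peak of all genes. The 6 Pcdhb genes lie between 162 and 426 bp, below the grey band that marks the quartiles of all protein-coding genes, and 3 of the 4 C-type genes lie above 1200 bp.

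A further class of peaks lay far from the TSS, at the end of the coding sequence. A late coding peak was defined, after the positions had been seen, as a peak centred in the last 1000 bp of the longest coding segment and over 1000 bp from the TSS of every protein-coding gene. Such a peak was listed in 20 of the 57 members (35.1%), and in 75 of the 664 other genes with a coding segment of at least 2000 bp (11.3%). The members were 12 of 22 Pcdhb (54.5%), 3 of 14 Pcdha (21.4%) and 5 of 21 Pcdhg genes (23.8%). Of the latter, 4 were Pcdhgb and 1 was Pcdhga, and no C-type gene had such a peak. The late peaks of Pcdha4, Pcdhb12 and Pcdhga12 lay within 1000 bp of the start of another annotated transcript (Gm38225, Gm37446 and Gm26672), and that of Pcdhga12 held the start. Without such peaks the count was 17 of 57 (29.8%), against 10.5% of the other genes.

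In the Pcdhb genes the late peaks were centred 1936 to 2430 bp after the TSS and 280 to 661 bp before the end of the coding segment. Their median width of 641 bp was above the 259 bp of the peaks at Pcdhb promoters. They were listed unevenly along the chromosome. Each of the 7 genes from Pcdhb16 to Pcdhb22 had a late peak, as did Pcdhb14, whereas 4 of the 13 genes from Pcdhb1 to Pcdhb13 had it, namely Pcdhb3, Pcdhb7, Pcdhb10 and Pcdhb12. The widest was that of Pcdhb17 (898 bp at chr18:37486507-37487404), and Pcdhb22, the last of the sub-cluster, had 846 bp.

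A late peak was listed in 3 of the 6 Pcdhb genes with a promoter peak (50%) and in 9 of the 16 without (56.2%). A late peak stood alone in 9 genes, a promoter peak alone in Pcdhb4, Pcdhb6 and Pcdhb8, both in Pcdhb3, Pcdhb17 and Pcdhb22, and neither in Pcdhb1, Pcdhb2, Pcdhb5, Pcdhb9, Pcdhb11, Pcdhb13 and Pcdhb15. In the other sub-clusters every gene with a late peak also had a promoter peak. Late peaks were narrow at Pcdhgb6 (163 bp), Pcdhgb1 (183 bp, with a second of 318 bp) and Pcdhgb2 (223 bp), and wider at Pcdhgb5 (429 bp) and Pcdhga12 (898 bp). In Pcdha they stood at Pcdha3 (341 bp), Pcdha4 (316 bp) and Pcdha5 (460 bp). Counted over all members, 46 of 57 had a promoter or a late peak and 11 had neither.

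**Figure D3:**
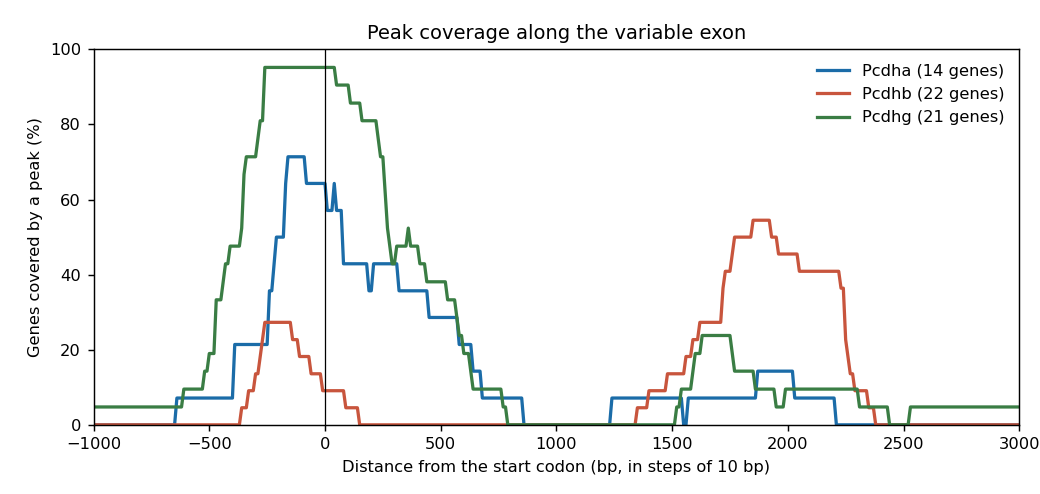
The horizontal axis is the distance from the start codon in bp and the vertical axis is the share of genes of each sub-cluster covered by a listed peak, in %. Pcdhg reaches 95.2% from -260 bp, Pcdha 71.4% from -160 bp and Pcdhb 27.3% from -260 bp. Pcdhb falls to 9.09% at the start codon, and it alone rises to a higher second crest, 54.5% at 1850 bp.

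The profile along the exon showed the same division by distance from the start codon. Coverage of Pcdhg genes was highest, at 95.2%, from position -260 on, and that of Pcdha genes was 71.4% at -160. No Pcdhb gene was covered from 500 to 1300 bp after the codon, and at 1850 bp 12 of 22 were. Pcdhg coverage in the same late stretch peaked at 23.8%, at 1630 bp, and Pcdha coverage at 14.3%.

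The late coding sequences share stretches with other places in the genome, where short reads are harder to assign. In the last 1000 coding bp, 31-base words that recur elsewhere on the assembled chromosomes made up a median of 30.9% (13.7% to 38.7%) in the 12 Pcdhb genes with a late peak and 22.8% (0% to 26.6%) in the 10 without. In Pcdhg genes the medians were 43.7% (0.309% to 59.0%) and 2.17% (0% to 25.7%). The late windows of these 5 Pcdhg genes were also richer in CpG, with an observed over expected ratio of 0.722 (0.689 to 0.837) against 0.316 (0.134 to 0.772) in the other 16. This split follows gene type, with a late peak in 4 of 6 Pcdhgb and 1 of 12 Pcdhga genes. Pcdhgb4 and Pcdhgb7, which had no late peak, had CpG ratios of 0.679 and 0.772 and repeated words of 25.7% and 7.53%. Pcdhga12, the only Pcdhga gene with a late peak, had a CpG ratio of 0.722 and repeated words of 0.309%, and its late peak holds the start of Gm26672. With so few exceptions, gene type and late peak cannot be told apart in Pcdhg. In Pcdhb genes the ratio was 0.483 (0.379 to 0.605) with and 0.416 (0.263 to 0.507) without a late peak, and the ranges overlapped. The part of repeated sequence or CpG content in the late peaks was not tested.

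Promoter sequence was compared in the same way. Over 1000 bp on each side of the TSS, median GC content was 41.9% in Pcdha, 42.1% in Pcdhb and 45.5% in Pcdhg, below the 51.2% of all protein-coding genes, and 51.4% in the C-type genes. The median CpG ratio was 0.641 in Pcdha, 0.334 in Pcdhb and 0.513 in Pcdhg, against 0.474 over all genes. Within Pcdhb it was 0.361 (0.285 to 0.442) in the 6 genes with a peak and 0.322 (0.138 to 0.475) in the 16 without. Within Pcdha it was 0.650 (0.538 to 0.687) in the 11 with and 0.606 (0.520 to 0.702) in the 3 without. In both sub-clusters the ranges overlapped. Pcdhgc5 had the lowest ratio of the Pcdhg genes, 0.251.

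CTCF binds these promoters in neural cells, and its consensus was therefore searched in the same windows on both strands, with up to 1 mismatch. A match occurred in 10 of 57 members (17.5%) and in 8.66% of all protein-coding promoters. Of these members 9 were alternate Pcdha genes, 1 was Pcdhgb7, and no Pcdhb gene had a match. The 9 Pcdha matches all lay on the plus strand, the strand of transcription, and began 456 to 581 bp after the TSS and 456 to 546 bp after the start codon, inside the variable exon. Without a mismatch 6 members matched (10.5%), against 0.903% of all promoters, and with up to 2 mismatches 29 matched (50.9%), against 53.3%. Within 500 bp on each side of the TSS, which leaves out the exonic position of most Pcdha matches, 1 member matched. Pcdha2, Pcdha3 and ENSMUSG00000102206 were the alternate Pcdha genes with no match. A consensus search misses diverged sites, so the absence of a match says nothing about binding.

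Most of these exonic matches lay outside the listed peaks. How often matches at other promoters lie in a listed peak was not counted, so this describes the Pcdha genes only. Only those of Pcdha4 and Pcdha7 lay in a peak near the TSS, in peaks of 464 and 535 bp. At Pcdha5 the peak ended 447 bp and the match began 456 bp after the TSS. The matches of Pcdha1, Pcdha8 and Pcdha9 stood in exons with no peak at all, and those of Pcdha6, Pcdha12 and ENSMUSG00000007440 lay beyond promoter peaks that ended 124 to 399 bp after the TSS. Whether CTCF occupied any of them was not measured.

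Over the 76 peaks of the cluster, 5 (6.58%) held a CTCF match, against 13% of all listed peaks. Besides Pcdha4 and Pcdha7, these were a peak of 813 bp between the Pcdha and Pcdhb genes (chr18:37217912-37218724), the late peak of Pcdhb21 and the peak at the Slc25a2 promoter. The latter 3 matches lay on the minus strand, as did those in 4 peaks of the downstream flank, the nearest of which (1612 bp, chr18:37841294-37842905) covers the end of the last constant Pcdhg exon. The plus-strand matches of the Pcdha exons and these minus-strand matches after them thus pointed toward each other. The former came from promoter windows and the latter from peaks, so the sides were searched differently. The 3 minus-strand matches within the cluster had 1 mismatch each. In the downstream flank, which held 13 peaks, only the match in a peak of 478 bp was exact, and the others had 1 mismatch. Up to 1 mismatch is a setting met by 13% of all listed peaks. Whether any of these matches form pairs was not tested.

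Motifs of other factors were searched in the same way. The consensus of REST, a repressor of neuronal genes, was found with up to 4 mismatches in 0 of 57 member promoters and 1.90% of all promoters, and in 0 of 76 cluster peaks and 0.971% of all peaks. The composite OCT4::SOX2 motif, with up to 2 mismatches, was found in 2 member promoters (3.51%, against 1.01% of all). It was also found in 1 of the 76 cluster peaks (1.32%, against 0.395% of all peaks), the 214 bp peak at Pcdhb8. The octamer ATGCAAAT was found in 8 member promoters (14%, against 9.23% of all) and in 0 of the 76 cluster peaks, against 2.56% of all peaks.

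The 8-base word shared by the most members, between 300 bp before and 100 bp after the TSS, was GTGGCGCT, which ends in the CGCT core of the conserved element. It was present in 18 of 57 members (31.6%) and in 1.84% of all protein-coding promoters, counting both strands. Of the 18, 17 were Pcdhb genes and 1 was Pcdhgc5. In the 17 Pcdhb genes it was on 1 strand, at a median position of -53 bp from the TSS, and in Pcdhgc5, which lacks the element, it was on the other strand. A peak near the TSS was listed in 4 of the 18 genes, beside 6 of all 22 Pcdhb genes (27.3%). As nearly all carriers are Pcdhb genes, the word and the sub-cluster cannot be told apart here. The word was chosen because the members share it, and it was not found in this stretch in Pcdhb1, Pcdhb13, Pcdhb16, Pcdhb17 and Pcdhb22. Its median position was -239 bp from the start codon. In Pcdhb17 and Pcdhb22, whose peaks began after the TSS, the start codon lies 364 and 610 bp after the TSS. That position then falls outside the searched stretch, so a word there would have been missed.

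**Figure D4:**
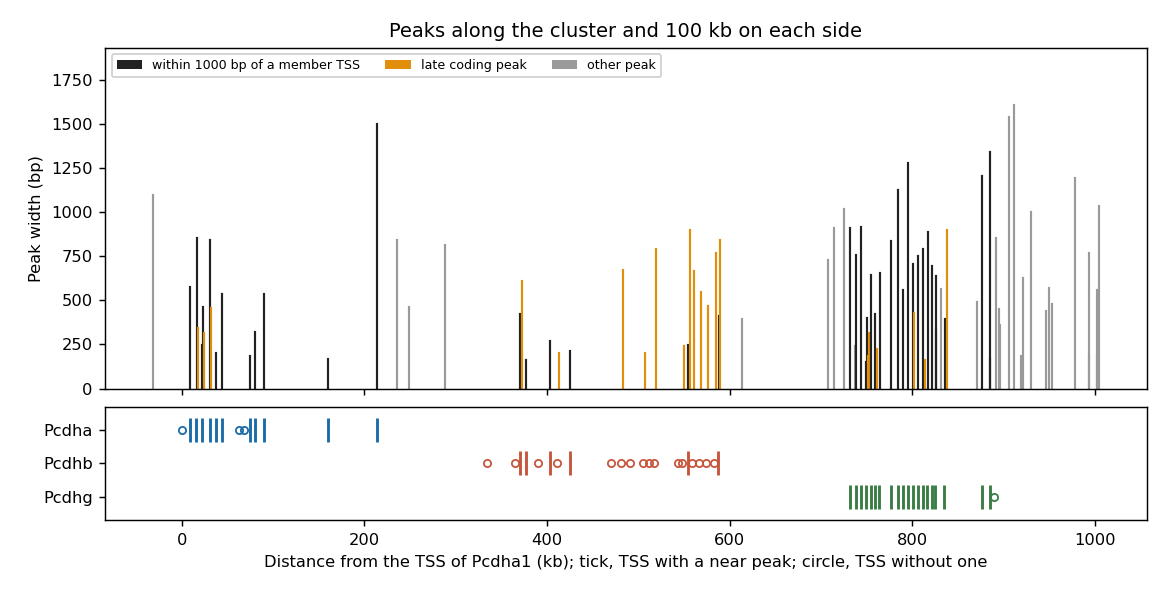
The upper panel gives each listed peak by its distance from the Pcdha1 TSS in kb and its width in bp, and the lower panel gives the TSS of each sub-cluster, as a tick with and as a circle without a peak within 1000 bp. Peaks are dense over Pcdhg, with 36 in 180 kb, and over Pcdhb, with 18 in 260 kb, circles outnumber ticks.

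Seen along the chromosome, the cluster held 8.34 peaks per 100 kb, against 3.87 over all assembled chromosomes and 3.86 over chromosome 18. This comparison does not allow for gene density, and the cluster has 57 member TSS in 912 kb. The Pcdhg sub-cluster held 36 peaks in 180 kb, Pcdhb 18 in 260 kb and Pcdha 17 in 257 kb. Of the 76 cluster peaks, 41 lay within 1000 bp of a member TSS, 21 were late coding peaks, 1 overlapped a constant exon, 6 lay near the start of another gene only, and 7 had none of these places. The upstream flank held 1 peak and the downstream flank 13.

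The longest stretches without a peak were 94.2 kb between Pcdhb and Pcdhg and 81.9 kb that ran over Pcdhb1 and Pcdhb2. A stretch of 58.4 kb ran over the TSS of Pcdhb9 and Pcdhb10, and stretches of 69.3 and 53.3 kb lay on either side of Pcdhac1. The peak of 166 bp at Pcdhac1 was thus isolated.

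The constant exons had few peaks besides the 1612 bp peak at the end of Pcdhg. None overlapped the constant exons of Pcdha, although peaks of 843 bp (chr18:37165262-37166104) and 464 bp (chr18:37178320-37178783) lay between the second and the third. In Pcdhg a peak of 454 bp overlapped the first constant exon, and a peak of 1540 bp (chr18:37835318-37836857), the widest in the cluster, lay between the second and the third. These are positions only, and none was assigned to a known enhancer here.

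Several other genes start inside the cluster. Among 5 protein-coding genes that are no members, Slc25a2, a mitochondrial ornithine carrier, had its TSS in a peak of 732 bp and Taf7, a subunit of the general transcription factor TFIID, in a peak of 913 bp. Gm42416 starts in the same peak as Pcdha4, and Gm37013 and Gm37388 had no peak within 1000 bp, at 2118 and 1446 bp. Diaph1, an actin-nucleating formin and the only protein-coding TSS in either flank, lay in a peak of 1036 bp. Of 10 antisense transcripts annotated in the cluster 7 began within 1000 bp of a peak, and where such a start and a member TSS share a peak its source cannot be told apart.

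**Figure D5:**
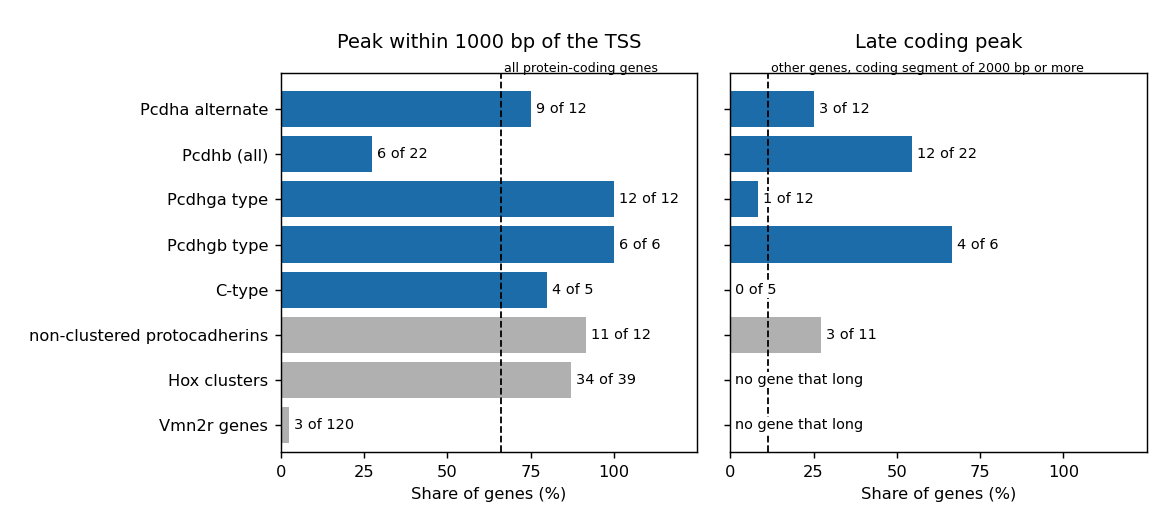
The left panel gives the share of genes with a peak within 1000 bp of the TSS and the right panel the share with a late coding peak, in %, with counts beside each bar and a dashed line at the background (66.1% and 11.3%). Pcdhb lies below the line on the left and above it on the right.

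Other families were counted for comparison. Protocadherins outside the cluster had a peak within 1000 bp of the TSS in 11 of 12 genes, from 184 bp at Pcdh12 to 1608 bp at Pcdh19. The nearest peak to Pcdh20 was 399655 bp away. Hox genes, which are also clustered, had a peak in 34 of 39 (87.2%). Vmn2r genes, pheromone receptors of which a sensory neuron expresses few, had it in 3 of 120 (2.50%). A late coding peak was listed in 3 of the 11 non-clustered protocadherins with a long coding segment (27.3%), beside 20 of 57 in the cluster. Pcdhb genes, at 27.3%, lay between Vmn2r and Hox genes.

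The genes that act on or with the clustered protocadherins mostly had a peak near the TSS, as did 66.1% of all protein-coding genes. A peak was listed at 9 of 9 genes for CTCF and cohesin, from 592 bp at Stag2 to 1604 bp at Rad21. It was listed at 8 of 9 chromatin regulators, among them Smchd1, which represses the cluster, and Rest. Dnmt1, which maintains DNA methylation, was the exception, at 1069 bp. All 8 genes for intracellular partners, which include the kinases Ptk2 and Ptk2b and the actin regulator Wasf1, had a peak, from 315 bp at Ptk2b to 1848 bp at Wasf1.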

How the data were processed

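ATAC-seq reads had been processed by the authors: per the labels and the methods, they were aligned to GRCm38 with STAR 2.6.1c, duplicates were removed with Picard, peaks were called with MACS2 2.1.1.20160309, and the peaks of the 16 dox-treated libraries were merged with bedtools. The deposited list holds positions in bp (no score, count or signal). The methods describe removal of peaks over 5000 bp, but 7 remain, and whether input and blacklisted regions had been removed was not tested.

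The TSS was the 5′ end of each gene in GENCODE M21, and coding segments came from the transcript with the longest coding sequence. Motifs were searched in the reference sequence, and repeated 31-base words were counted over all assembled chromosomes. Named genes are the C-type genes and Pcdhb1, the ends of each sub-cluster, the 20 members with the widest promoter peak, the 5 farthest from a peak, other protein-coding genes in the cluster and flanks, and the related lists. Further genes are named for counts, late peaks or motifs, after their values were seen. Members and lists were chosen with earlier results of these data known. The search functions were tested on simulated data. Alternatives were distances, peak filters, joined peaks, flanks and motif mismatches. The software was matplotlib 3.10.9, pandas 2.3.3 and numpy 2.4.6 under Python 3.11.15.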

Additional observations from a re-analysis of the deposited data

How the results depend on the processing

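With the limit for a promoter peak at 500 bp, 2000 bp or the TSS itself, the number of members with a peak was 37, 45 or 33, beside 37 at 1000 bp, and 30 with peaks of at least 300 bp only. The Pcdhb count moved most, from 6 to 14 at 2000 bp and to 2 with peaks of at least 300 bp, whereas Pcdha stayed at 8 to 11 of 14 and Pcdhg at 19 or 20 of 21 throughout. Of 39 alternatives 32 stayed within 1.5 times the value reported, among them all those for peak density, for the width of promoter peaks and, chosen after the data were seen, for late peaks (19 members in the last 800 bp, 20 in the last 1200 bp and 17 without peaks near another start). The other 5 that moved concern the CTCF consensus. Member promoters with a match numbered 6 with no mismatch, 29 with up to 2 mismatches and 1 in a window of 500 bp on each side, beside 10. Cluster peaks with a match numbered 2 with no mismatch and 22 with up to 2, beside 5. Up to 2 mismatches also match 53.3% of all promoters and 32.6% of all peaks. No paired analysis was possible because single libraries have no values in these data, and for the same reason no replicate could be left out. Depth is unknown, so an unlisted promoter cannot be told from one under the detection limit.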
